A study of Mus musculus with 9 samples.

Results

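Mammary tumours that the labels call metastatic were compared with normal mammary glands across genes. The comparison used 6 of the 9 samples of the series, 3 tumours and 3 glands, chosen by the group named in each sample's title. All mice were female and of strain FVB, and each array measured 1 mouse. The metastatic tumours came from MMTV-Wnt1 mice (genotype label Wnt1+/-), in which a mouse mammary tumour virus promoter drives the transgene. Tumours appeared at 251, 194 and 242 days of age and were collected at 300, 281 and 284 days, when they had reached 20 mm. The normal glands came from control littermates labelled Wild-type Wnt1, at 533, 556 and 538 days, so the effect of age cannot be told apart from that of the tumour. From 6 weeks of age mice of both genotypes drank 6% sucrose with 200 ug/ml of doxycycline. The other 3 arrays, of tumours labelled non-metastatic, entered the fit to estimate the spread between mice. They came from females with the same genotype label and treatment, with onset at 306, 192 and 247 days and collection at 354, 222 and 298 days, also at 20 mm.

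Wnt proteins are secreted signals that bind Frizzled receptors and Lrp co-receptors. Canonical signalling stabilises beta-catenin, which switches on target genes, several of which encode inhibitors that restrain the pathway. The mammary gland is a branched epithelium of luminal and basal cells within a pad of fat, vessels, nerves and immune cells, and MMTV-Wnt1 is a long-used model of mammary cancer. The arrays measured whole pieces of tissue, so fewer cells of a type and less RNA per cell cannot be told apart in any result.

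Values are log2 expression, in which 1 unit is a factor of 2 in linear terms. A change is the mean of the metastatic tumours minus the mean of the normal glands, printed with limma's moderated standard error (SE). A gene rose or fell if its Benjamini-Hochberg adjusted p over 17478 genes was under 0.05. By that rule 2332 genes were called, of which 1284 were higher in metastatic tumours (7.35% of genes tested) and 1048 lower (6.00%). Calls with a change of at least 1 numbered 966, split into 366 higher and 600 lower. The median change of all genes was 0.04. Counts over the gene lists below are to be read beside these shares.

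The tissue labels were checked against marker genes. Keratin 8 (Krt8), a luminal keratin, measured 10.24, 8.60 and 10.22 in normal glands 1, 2 and 3, and 10.75, 10.68 and 11.00 in metastatic tumours 1, 2 and 3. Keratin 10 (Krt10), a keratin of the outer skin, measured 6.23, 12.17 and 6.49 in the glands and 6.71, 6.50 and 6.32 in the tumours. The fast muscle myosin Myh4 measured 3.95, 11.46 and 5.52 in the glands and 4.37, 5.05 and 4.65 in the tumours. Normal gland 2 was thus far above the 5 other arrays for a muscle and a skin marker, and lowest for Krt8. Other luminal and basal markers did not all go that way. The luminal markers Krt18 and Epcam were also lowest in normal gland 2, at 8.91 and 9.81. Luminal Krt19 was lowest in metastatic tumour 2 (7.12), against 8.20 in normal gland 2. The basal keratin Krt14 was highest in normal gland 2, at 11.45. Trp63, a basal marker, was 8.73 there, the highest gland. The B cell markers Ms4a1 and Cr2 lay below the filter on low values, Ms4a1 reaching 6.11 in normal gland 2 and at most 4.83 elsewhere among the 6 arrays.

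Over the whole table, 264 genes in normal gland 2 lay more than 2 log2 units from the mean of normal glands 1 and 3, 175 above and 89 below. The same distance was reached by 57 genes in normal gland 1 and 99 in normal gland 3. Of the 264 genes, 4 were called with all arrays (1.52%, against 13.3% of all genes) and 12 when normal gland 2 was left out (4.55%, against 4.93%). Genes chosen for a wide spread among the glands pass the test less readily. The genes furthest above were Krt77, Myh4, Krtdap, Krt10, Ly6g6c and Dmkn, of which all but Myh4, a gene of muscle, are known from skin. Furthest below were Glycam1, Lao1, Csn1s2a, Wap, Olah and Lalba, which are known from the milk-producing gland. Across genes, normal gland 2 correlated with metastatic tumours at r = 0.855, 0.860 and 0.847, normal gland 1 at 0.904, 0.903 and 0.907, and normal gland 3 at 0.926, 0.913 and 0.925. Normal glands 2 and 3 thus stood on either side of normal gland 1, and such r values across genes are no more than a description of the arrays.

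Leaving out normal gland 2 reduced the calls to 861, with 356 higher (2.04%) and 505 lower (2.89%). Of the 2332 genes, 817 (35.0%) kept their call, 1515 lost it, none changed sign and 44 others were gained. Leaving out normal gland 1 gave 793 calls, 767 of them among the 2332, and its muscle and epidermis scores, the means of those lists' log2 values relative to the 9 arrays, were -0.48 and -0.99 against 2.49 and 2.66 in normal gland 2. Without normal gland 3 the count rose to 2832. Leaving out metastatic tumour 1, 2 or 3 gave 627, 1070 and 639 calls. The count of calls therefore moved with each of these arrays and not with normal gland 2 alone. There were 470 genes called whichever of the 6 arrays was left out. Each such fit had 1 array fewer and so less power to call a gene. That loss cannot be told apart from the part of the array left out. A lost call is therefore not by itself a sign that a gene depends on that array.

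The size of the changes was also set beside each fit. The median absolute change of the 2332 called genes was 0.86 with all arrays, 0.76 without the second normal gland, 0.88 without the first and 0.95 without the third. Only 1 called gene, Cxcl13, moved by more than 1 when normal gland 2 was left out, and 26 moved by more than 0.5. Over all genes tested, 111 moved by more than 1 when normal gland 2 was left out, against 9 for normal gland 1 and 12 for normal gland 3. The called genes were selected by a test that favours a small spread among the glands, normal gland 2 included, so their small moves are no sign of stability.

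**Figure D1:**
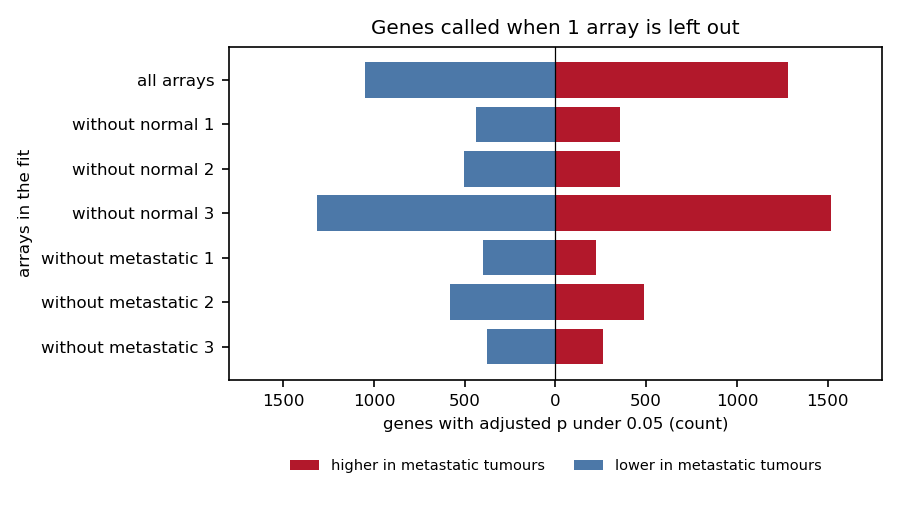
Genes called (adjusted p under 0.05) in metastatic tumours against normal glands, with all arrays and with each of the 6 arrays left out; red bars to the right count genes higher in tumours, blue bars to the left genes lower. The total was 2332 with all arrays, between 627 and 1070 when any array except normal gland 3 was left out, and 2832 without that gland.

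**Figure D2:**
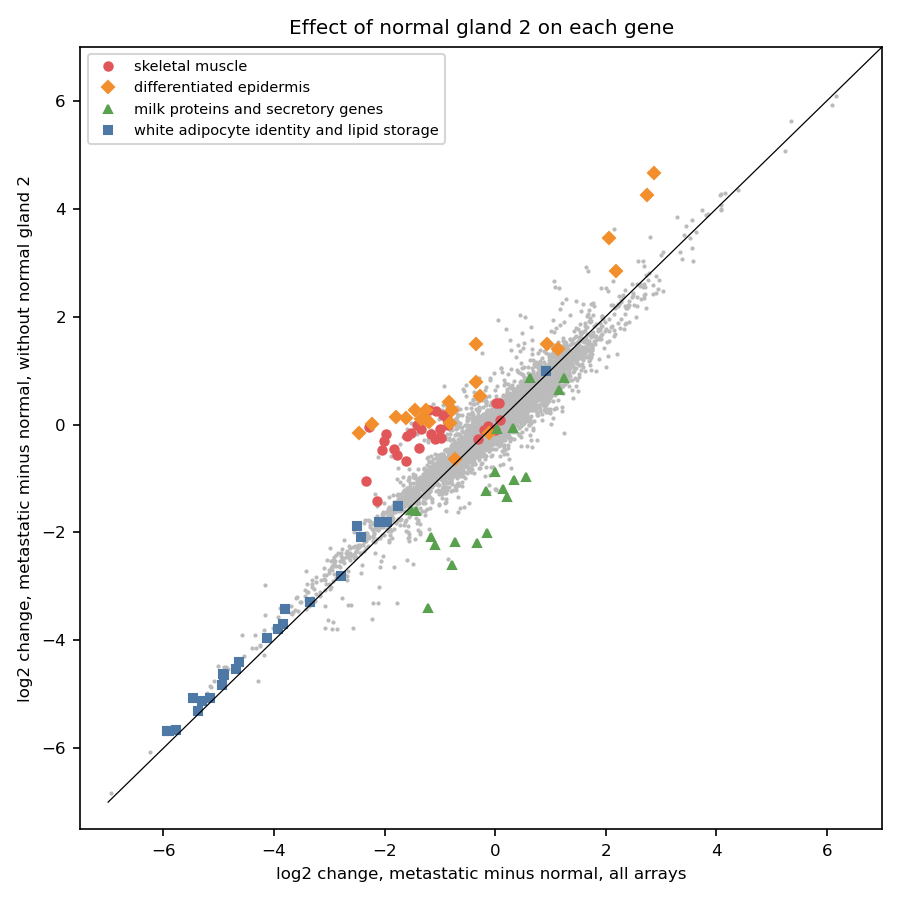
Each grey point is a gene, with its log2 change over all arrays on the x axis and its change without normal gland 2 on the y axis; the line marks equal values. White adipocyte genes (blue squares) lie near the line, while most muscle genes (red circles) and most epidermis genes (orange diamonds) lie above it and most milk genes (green triangles) below it.

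Among the genes that rose most was Wnt1 itself, which checks the labels. Wnt1 measured 5.61, 5.45 and 5.71 in normal glands and 12.02, 11.20 and 12.04 in metastatic tumours, a change of 6.16 ± 0.25 (adjusted p = 4.02e-05), or 6.09 without normal gland 2. Serpinb11, of the serpin family of protease inhibitors, measured 4.35, 5.17 and 4.26 in glands and 9.96, 8.79 and 11.06 in tumours, a 40.6-fold rise (5.34 ± 0.90, adjusted p = 0.0126). The call held without normal gland 2 (adjusted p = 0.0329).

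The retinol transporter gene Stra6, a Wnt-responsive gene in mammary cells, measured 6.41, 6.24 and 6.78 in glands and 11.59, 11.57 and 8.54 in tumours, a rise of 4.09 ± 0.76 (adjusted p = 0.0162). Metastatic tumour 3 was about 3 units below the other tumours. Egfl6, a secreted matrix protein, measured 6.71, 7.18 and 6.52 in glands and 11.15, 8.73 and 12.75 in tumours (4.07 ± 1.05, adjusted p = 0.041). The secretoglobin gene Scgb1b27 ranged from 7.24 to 13.05 in the tumours and from 4.64 to 5.16 in the glands (5.24 ± 1.19, adjusted p = 0.0293). These 3 genes were apart between the groups on every array, but the spread among tumours was wide. Each lost its call without normal gland 2, at adjusted p = 0.0535 for Stra6, 0.0961 for Egfl6 and 0.0868 for Scgb1b27, while the changes hardly moved (3.97, 4.26 and 5.07).

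The amino acid transporter gene Slc6a15 measured 5.59, 4.59 and 5.27 in glands and 8.65, 8.51 and 8.98 in tumours, a rise of 3.56 ± 0.38 (adjusted p = 0.0030). Its tumours lay within 0.5 of each other, and without normal gland 2 the change was 3.28 (adjusted p = 0.0095). Gprc5a, a membrane receptor that responds to retinoic acid, rose by 3.64 ± 0.58, and Col8a1, a short-chain collagen of vessel walls and basement membranes, by 3.75 ± 0.73. Both kept their calls without normal gland 2, at adjusted p = 0.0365 and 0.0468. Coch rose by 4.39 ± 0.31, Chad by 4.08 ± 0.66 and Nkd2 by 4.08 ± 0.41, also called without normal gland 2. Wif1, a secreted Wnt antagonist, is described with the Wnt pathway.

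At the other end, 10 of the 12 lowest genes are members of the lists of white or brown fat. The other two are Tmem45b and Orm1. Tmem45b, a membrane protein, measured 11.33, 11.74 and 10.35 in normal glands and 4.96, 5.38 and 5.24 in metastatic tumours, and fell by 5.94 ± 0.41 (adjusted p = 0.000328). Orm1, an acute-phase plasma protein that fat also makes, measured 10.77, 11.56 and 10.48 in glands and 6.03, 5.80 and 5.51 in tumours, and fell by 5.15 ± 0.41 (adjusted p = 0.000619). For both genes every gland was more than 4 units above every tumour. Their changes were -5.64 and -4.84 without normal gland 2, where 11 of the 12 lowest genes were still called. The exception was Car3, the carbonic anhydrase of fat and muscle, with a change of -5.16 ± 1.23 that became -5.07 (adjusted p = 0.0939).

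**Figure D3:**
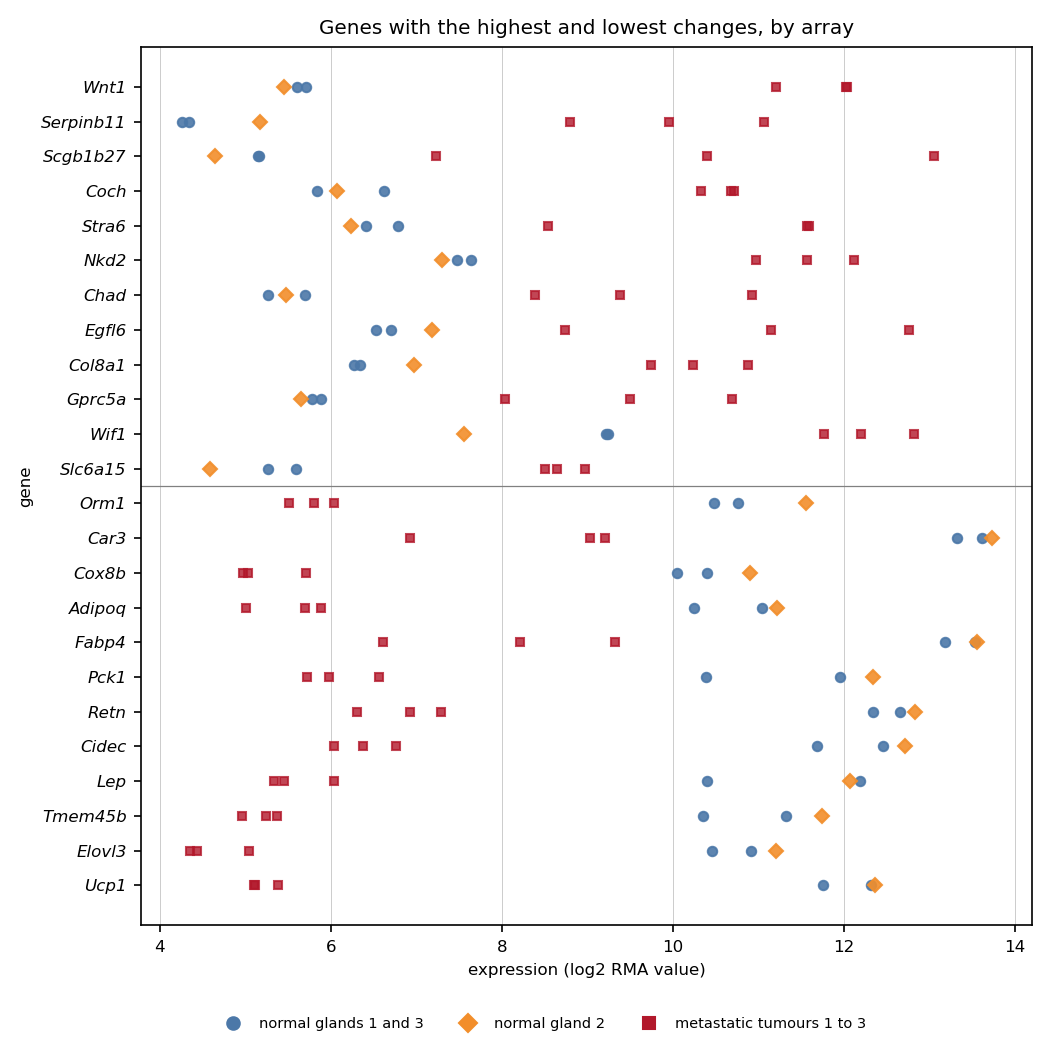
Log2 expression (x axis) of the 12 genes with the highest and the 12 with the lowest changes, 1 row per gene, with 1 point per array. Blue circles are normal glands 1 and 3, the orange diamond is normal gland 2 and red squares are the metastatic tumours. The genes were chosen to have no overlap between tumours and glands. Tumours spread most for Scgb1b27, from 7.24 to 13.05.

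Within the Wnt pathway, feedback inhibitors and targets rose more often than they fell. Of 32 measured members, 7 rose, 2 fell and 23 did not pass, and the median change was 0.61. Wif1, which binds Wnt proteins outside the cell, measured 9.24, 7.56 and 9.22 in glands and 12.20, 11.76 and 12.82 in tumours, a 12-fold rise (3.59 ± 0.69, adjusted p = 0.0186). Normal gland 2 was the lowest array, and without it the rise was 3.03 (adjusted p = 0.0535). The other members that rose were Nkd2, Tnfrsf19, Lgr6, Ccnd1, Cd44 and Znrf3. Tnfrsf19, a receptor of the TNF receptor family, rose by 2.24 ± 0.46, and Lgr6, an R-spondin receptor of stem cells, by 2.16 ± 0.57. Cd44, a hyaluronan receptor, measured 8.47, 9.59 and 8.30 in glands and 10.70, 10.78 and 10.25 in tumours, and its change grew from 1.79 to 2.19 without normal gland 2. Without that gland, 2 members rose (Nkd2 and Cd44), 1 fell and the median was 0.53. Without normal gland 1 the counts were 2 and 0, and without normal gland 3 they were 8 and 4.

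The members that fell were Sfrp4 and Sfrp5, secreted Frizzled-related proteins. Sfrp5 measured 7.12, 7.59 and 6.14 in glands and 5.10, 5.37 and 5.19 in tumours, and fell by 1.73 ± 0.33 (adjusted p = 0.0172), or -1.41 without normal gland 2 (adjusted p = 0.0384). Axin2, the scaffold that is the usual readout of canonical Wnt signalling, measured 8.06, 8.24 and 7.70 in glands and 8.48, 8.92 and 8.61 in tumours. All tumours were above all glands, but the change of 0.67 ± 0.19 just missed the threshold (adjusted p = 0.0523). Among 33 Wnt ligands and receptors other than Wnt1, 4 rose (Wnt5a, Fzd7, Fzd6 and Lrp5), 3 fell (Fzd4, Wnt2 and Wnt10b) and 26 did not pass. The median change of these genes was 0.03.

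Fzd4, a Frizzled receptor known from blood vessels, measured 11.06, 11.24 and 9.66 in glands and 7.54, 8.41 and 7.67 in tumours, and fell by 2.78 ± 0.42 (adjusted p = 0.0094). Without normal gland 2 the change was smaller, at -2.48, and still called (adjusted p = 0.0280). Wnt5a, a ligand of non-canonical signalling, rose by 1.47 ± 0.33, a call that was lost without normal gland 2 (adjusted p = 0.0870). Rspo1, a secreted amplifier of Wnt signalling, measured 10.56, 7.45 and 11.56 in glands and 7.55, 7.21 and 8.47 in tumours. Normal gland 2 lay with the tumours, more than 3 units below the other glands. With all arrays Rspo1 was not called (-2.11 ± 0.97, adjusted p = 0.184), and without normal gland 2 it fell by 3.31 (adjusted p = 0.0277).

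Of 25 genes of simple epithelium, 7 rose, 0 fell and 18 did not pass, with a median change of 1.00 that became 0.58 without normal gland 2, where 5 rose. Krt7, a keratin of simple epithelia, measured 6.91, 5.90 and 6.74 in glands and 9.38, 9.26 and 7.96 in tumours, and rose by 2.36 ± 0.41 (adjusted p = 0.0132). Elf3, an epithelial transcription factor, measured 7.14, 5.96 and 7.01 in glands and 8.57, 8.61 and 8.09 in tumours (1.72 ± 0.35, adjusted p = 0.0213). In both genes normal gland 2 was the lowest array and no gland reached a tumour. Without it the changes were 2.05 and 1.34, and both calls held. Cdh1, the adhesion molecule E-cadherin, rose by 1.15 ± 0.19 and by 0.94 without that gland.

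The score of the simple epithelium list, its members' average after each gene was centred on the 9 arrays, was -0.57, -1.26 and -0.23 in the glands and 0.61, 0.13 and 0.33 in the tumours. Among 15 regulators of luminal progenitors and alveolar cells, 2 rose and 0 fell. Kit, a receptor of luminal progenitors and of mast cells, measured 10.54, 9.21 and 10.36 in glands and 11.55, 12.01 and 11.70 in tumours, and rose by 1.72 ± 0.34 (adjusted p = 0.0202). Every tumour was above every gland by about 1 unit or more, and without normal gland 2 the rise was 1.30 (adjusted p = 0.0246). Among 12 hormone-sensing luminal genes, 0 fell and 1 rose, Prom1, a membrane protein of luminal cells (2.39 ± 0.39, adjusted p = 0.0110). Without normal gland 2 Prom1 still rose (2.16, adjusted p = 0.0369) and Tnfsf11 fell by 1.99 (adjusted p = 0.0098). With all arrays Tnfsf11 had a change of -1.36 that did not pass (adjusted p = 0.103). The oestrogen receptor gene Esr1 measured 9.28, 9.68 and 8.79 in glands and 7.18, 6.16 and 8.96 in tumours, a change of -1.82 ± 0.65 that did not pass (adjusted p = 0.104). Metastatic tumour 3 lay among the glands, and the other tumours were about 1 unit apart.

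Basal and myoepithelial genes gave 0 members that rose and 1 that fell of 20, against 7.35% of all genes higher and 6.00% lower. The median change was 0.84, and 6 members were higher at an unadjusted p under 0.05 in limma. The member that fell was Dst, a linker of keratin filaments to hemidesmosomes (-1.32 ± 0.24). In normal gland 2, 3 members were more than 2 units above the mean of the other glands. Without that gland the median was 0.72, Igfbp3 rose by 1.89 (adjusted p = 0.0186) and Dst still fell (adjusted p = 0.0451). Sox10, a transcription factor of basal and progenitor cells, is counted in the luminal progenitor list and not in the basal list. It measured 9.19, 6.72 and 9.27 in glands and 10.09, 10.17 and 10.43 in tumours. With all arrays Sox10 was not called (1.83 ± 0.60, adjusted p = 0.0804), and without normal gland 2 it rose by 1.00 (adjusted p = 0.0246). The remaining glands lay 0.1 apart, where the 3 glands had spanned 6.72 to 9.27.

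Most mitotic genes rose. Of 33 measured genes of mitosis and the spindle, 27 rose, 0 fell and 6 did not pass, against 7.35% of all genes tested, and the median change was 1.50. Ect2, which directs the contractile ring when a cell divides, measured 8.10, 7.52 and 8.85 in glands and 10.46, 9.72 and 10.02 in tumours, a 3.76-fold rise (1.91 ± 0.33, adjusted p = 0.0130). Ccnb2, a cyclin of mitotic entry, measured 7.03, 6.75 and 7.98 in glands and 9.62, 8.41 and 9.27 in tumours (1.85 ± 0.38, adjusted p = 0.0222). Ndc80, a kinetochore protein that holds microtubules, measured 6.47, 6.31 and 8.03 in glands and 9.33, 8.11 and 8.78 in tumours (1.80 ± 0.47, adjusted p = 0.0438). Normal gland 3 was the highest gland and metastatic tumour 2 the lowest tumour in each, and in Ndc80 those arrays were only 0.1 apart.

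The score of these genes was lowest in normal gland 2. Without that gland 7 of the 33 rose, with a median change of 1.28. Without normal gland 1 the count was 4, and without normal gland 3 it was 31. The list score was -1.16, -1.47 and -0.40 in the glands and 0.84, 0.00 and 0.44 in the tumours. Nuf2, the partner of Ndc80, rose by 1.73 ± 0.35 and by 1.40 without normal gland 2 (adjusted p = 0.0532), while Ect2 kept its call (1.59, adjusted p = 0.0299). Epithelial genes stood in a like order across the glands, with scores of -0.57, -1.26 and -0.23, and their part in this result was not tested.

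The promoters of 3 of these genes are shown because many mitotic genes carry the cell cycle genes homology region, an element through which the DREAM and MuvB complexes act late in the cycle. Each stretch runs from 250 bases before the start of the gene to 50 bases after it, taken from RefSeq on GRCm38.p6 and written 5′ to 3′ on the gene's strand. Capitals mark the letters TTTGAA or TTCGAA on either strand, so that TTCAAA is TTTGAA on the other strand. All 3 lie on the minus strand, Ect2 at chr3:27153829-27154128, Ccnb2 at chr9:70421505-70421804 and Ndc80 at chr17:71526808-71527107.
Ect2: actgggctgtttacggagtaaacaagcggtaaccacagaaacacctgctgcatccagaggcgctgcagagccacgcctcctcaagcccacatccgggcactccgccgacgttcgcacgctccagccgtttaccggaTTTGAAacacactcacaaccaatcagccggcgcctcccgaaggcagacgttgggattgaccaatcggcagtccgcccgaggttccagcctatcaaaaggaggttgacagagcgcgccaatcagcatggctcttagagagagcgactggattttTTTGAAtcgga
Ccnb2: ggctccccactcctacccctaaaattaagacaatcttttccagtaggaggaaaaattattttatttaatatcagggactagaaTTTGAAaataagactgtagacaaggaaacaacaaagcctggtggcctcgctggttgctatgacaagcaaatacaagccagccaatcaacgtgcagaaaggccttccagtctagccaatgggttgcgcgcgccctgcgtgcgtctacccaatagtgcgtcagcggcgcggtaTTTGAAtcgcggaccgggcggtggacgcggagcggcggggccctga
Ndc80: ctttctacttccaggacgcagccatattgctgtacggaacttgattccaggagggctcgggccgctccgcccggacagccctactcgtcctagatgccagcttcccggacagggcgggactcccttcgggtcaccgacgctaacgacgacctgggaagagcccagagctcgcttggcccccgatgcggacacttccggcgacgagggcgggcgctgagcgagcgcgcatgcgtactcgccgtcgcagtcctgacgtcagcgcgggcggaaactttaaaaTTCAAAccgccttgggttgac
The motif began at positions 137 and 290 of the Ect2 stretch, 84 and 255 of Ccnb2 and 280 of Ndc80, counted from its first base. Of 29 mitotic genes with a listed promoter, 24 (82.8%) held it, against 5254 of 27025 promoters of all genes (19.4%). Of 30 genes of DNA replication it was found in 7 (23.3%), and of 29 genes of fat oxidation in 5 (17.2%). The promoter of Nuf2 held none. A match is only a match of letters and not a measured site.

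Of 37 genes of DNA replication and repair, 7 rose, 0 fell and 30 did not pass, with a median change of 0.85, and 29 were higher at an unadjusted p under 0.05. Blm, a helicase of the RecQ family, measured 6.78, 6.77 and 7.47 in glands and 8.72, 8.20 and 8.12 in tumours (1.34 ± 0.26, adjusted p = 0.0196). E2f8, an atypical E2F factor, rose by 1.61 ± 0.40. Both kept all tumours above all glands. Without normal gland 2 the median was 0.72, and limma called 0 of the 37, so that every call in this list was lost. Without normal gland 1 the count was also 0, and without normal gland 3 it was 27.

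Among G1 regulators, 3 of 24 rose and 1 fell, against 7.35% of all genes higher and 6.00% lower. Cdk6, a kinase that cyclin D activates, measured 8.86, 8.47 and 8.93 in glands and 10.08, 9.84 and 9.83 in tumours, and rose by 1.16 ± 0.16 (adjusted p = 0.0072). Ccnd1, cyclin D1, measured 10.21, 9.27 and 10.34 in glands and 11.94, 12.19 and 11.90 in tumours, and rose by 2.07 ± 0.47 (adjusted p = 0.0286). The groups were apart by about 1 unit or more in Cdk6 and Ccnd1. Without normal gland 2 the Cdk6 call held (adjusted p = 0.0181) and the Ccnd1 call did not (1.73, adjusted p = 0.0854). Perp, a p53 target and part of desmosomes, depended on normal gland 2. It measured 9.66, 11.94 and 9.22 in glands and 11.89, 12.18 and 11.12 in tumours, was not called with all arrays (1.46 ± 0.68, adjusted p = 0.191), and rose by 2.29 without normal gland 2 (adjusted p = 0.0324).

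**Figure D4:**
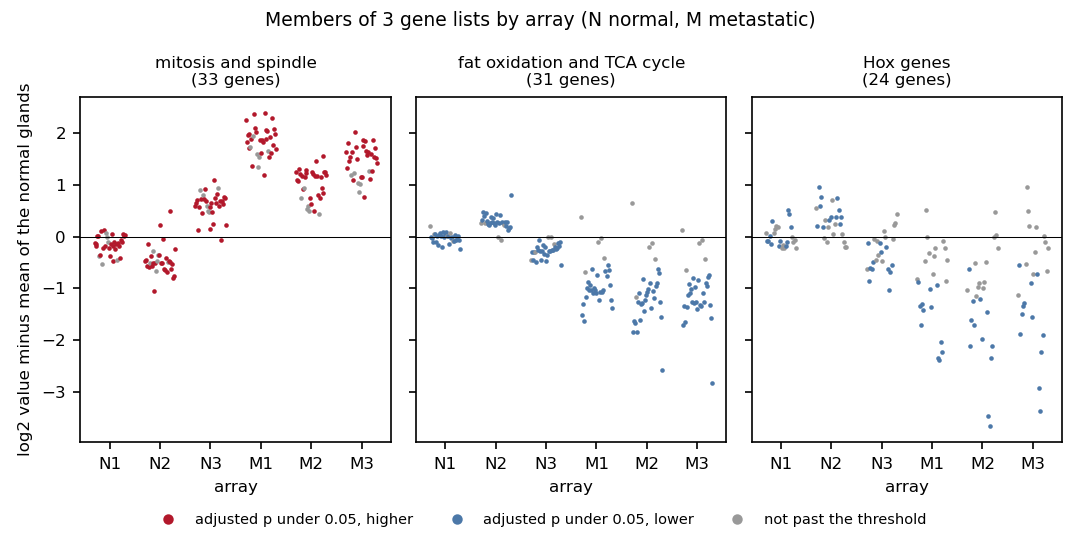
Each point is a gene on 1 array, as its log2 value minus its mean over the normal glands (y axis), for genes of mitosis, fat oxidation and the Hox clusters; N1 to N3 are normal glands and M1 to M3 metastatic tumours. Red points belong to genes that rose, blue to genes that fell and grey to genes that did not pass; mitotic genes were lowest in normal gland 2 and highest in metastatic tumour 1, while most fat oxidation genes lay below 0 in all tumours.

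Of 29 genes of Myc and ribosome biogenesis, 12 rose, 0 fell and 17 did not pass, with a median of 0.55. The count that rose was 4 without normal gland 2 (median 0.45), and without normal gland 1 it was 2. Nop58, a protein of the small nucleolar particles that modify ribosomal RNA, measured 9.37, 8.98 and 9.54 in glands and 10.43, 10.25 and 10.66 in tumours (1.15 ± 0.17, adjusted p = 0.0087). Dkc1, which pairs with small nucleolar RNAs, rose by 0.93 ± 0.15 (adjusted p = 0.0106). For both genes the spread within groups was under 0.6, and the calls held without normal gland 2 at adjusted p = 0.0200 and 0.0315.

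Among 20 genes of polyamine, amino acid and one-carbon metabolism, 7 rose and 1 fell. Slc7a11, the cystine importer, measured 5.40, 4.39 and 5.85 in glands and 6.23, 7.87 and 8.01 in tumours (2.16 ± 0.60, adjusted p = 0.0499). Slc7a5, the transporter of large neutral amino acids, rose by 1.59 ± 0.43, and Odc1, the first enzyme of polyamine synthesis, by 1.09 ± 0.22. Those 3 lost their calls without normal gland 2, at adjusted p = 0.148, 0.0617 and 0.0666. The member that fell was Slc1a5, a glutamine transporter, which measured 12.15, 12.48 and 11.19 in glands and 8.98, 9.16 and 8.53 in tumours. The change was -3.05 ± 0.32 (adjusted p = 0.0028), and -2.78 when normal gland 2 was left out (adjusted p = 0.0078).

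Fat-cell genes fell with the largest median change of the 42 lists described. Of 24 genes of white adipocyte identity and lipid storage, 22 fell and 0 rose, against 6.00% of all genes, and the median change was -4.38. Pparg, the nuclear receptor that directs fat-cell formation, measured 10.70, 11.03 and 9.92 in glands and 5.81, 6.20 and 5.74 in tumours, and fell by 4.63 ± 0.32 (adjusted p = 0.000328). Cidec, a protein of lipid droplets, fell by 5.89 ± 0.54. Retn, which encodes the adipocyte hormone resistin, fell by 5.77 ± 0.66. Without normal gland 2 the median was -4.18 and 19 members fell, against 19 without normal gland 1 and 22 without normal gland 3. The glands were more than 3 units above the tumours for Pparg, Cidec and Retn whichever gland is considered.

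Of 17 brown-fat genes, 10 fell and 0 rose, with a median of -1.63 that became -1.36 without normal gland 2, where 7 fell. Elovl3, a fatty acid elongase of brown fat and skin, measured 10.91, 11.20 and 10.46 in glands and 4.36, 4.44 and 5.04 in tumours, a 75.8-fold fall (-6.24 ± 0.28, adjusted p = 6.19e-05). Cox8b, a subunit of cytochrome oxidase in heart, muscle and brown fat, measured 10.40, 10.90 and 10.05 in glands and 4.98, 5.71 and 5.03 in tumours (-5.21 ± 0.26, adjusted p = 7.92e-05). Normal gland 2, which was high in skeletal muscle genes, was the highest array for Elovl3 and Cox8b, and the part of muscle was not tested. Without that gland Elovl3 had a change of -6.07 and Cox8b one of -4.98.

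Enzymes that make fatty acids and cholesterol fell in 14 of 26 cases and rose in 0, with a median of -1.19 and, without normal gland 2, -1.17 with 10 that fell. Mlxipl, which encodes the carbohydrate-sensing factor ChREBP, measured 10.32, 10.51 and 10.13 in glands and 6.69, 6.59 and 7.01 in tumours (-3.56 ± 0.17, adjusted p = 7.92e-05). Elovl6, an elongase of long-chain fatty acids, measured 12.58, 12.62 and 12.67 in glands and 9.26, 8.98 and 9.39 in tumours (-3.42 ± 0.17, adjusted p = 7.92e-05). Pcx, pyruvate carboxylase, fell by 3.31 ± 0.22, and Acacb, the acetyl-CoA carboxylase of the mitochondrial surface, fell by 3.44 ± 0.35. The glands lay within 0.4 of each other for Mlxipl, Elovl6 and Pcx, and without normal gland 2 the changes were -3.46, -3.42 and -3.22.

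Enzymes of fat oxidation and the TCA cycle fell in 26 of 31 cases, with 0 that rose and a median of -1.13. Cpt2, which completes the import of fatty acids into mitochondria, measured 10.49, 10.83 and 10.20 in glands and 8.99, 8.67 and 8.79 in tumours (-1.69 ± 0.20, adjusted p = 0.0039). Acadvl, the dehydrogenase of very long chains, measured 10.11, 10.62 and 9.92 in glands and 8.58, 8.55 and 8.57 in tumours (-1.65 ± 0.18, adjusted p = 0.0030). Dlat, a subunit of pyruvate dehydrogenase, fell by 1.46 ± 0.14. Muscle also expresses these enzymes, and normal gland 2, high in muscle genes, was the highest array for Cpt2, Acadvl and Dlat. Without it 22 of the 31 still fell, against 19 without normal gland 1, with a median of -0.98. Pdk4, the kinase that switches off pyruvate dehydrogenase, fell by 2.26 ± 0.57 and lost its call (-1.87, adjusted p = 0.114).

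Glycolysis and hypoxia genes did not move one way, with 3 that rose, 2 that fell and 21 that did not pass of 26, and a median of 0.09. Car12, a carbonic anhydrase of the cell surface, measured 6.17, 7.19 and 6.08 in glands and 9.02, 9.79 and 8.68 in tumours, and rose by 2.68 ± 0.54 (adjusted p = 0.0204). Normal gland 2 was the highest gland here, and without it Car12 rose by 3.04 (adjusted p = 0.0329). Egln3, a prolyl hydroxylase that oxygen regulates, rose by 1.77 ± 0.39, while hexokinase 2 (Hk2) fell by 1.82 ± 0.34. Those calls were lost without normal gland 2, at adjusted p = 0.0813 and 0.0536.

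Of 36 collagens and stromal matrix genes, 3 rose, 1 fell and 32 did not pass, against 7.35% of all genes higher and 6.00% lower. The median was -0.62, with 12 positive and 24 negative changes. In limma 5 were higher and 10 lower at an unadjusted p under 0.05. The genes that rose were Chad, Col8a1 and Col11a1, and the gene that fell was Col5a3. Col8a1 measured 6.35, 6.98 and 6.27 in glands and 9.74, 10.88 and 10.23 in tumours. Lum and Ogn, small proteoglycans of connective tissue, had changes of -2.68 ± 1.28 and -3.07 ± 1.19 that did not pass (adjusted p = 0.202 and 0.125). Ogn measured 11.39, 10.86 and 10.31 in glands and 8.33, 9.06 and 5.97 in tumours, so metastatic tumour 3 was well below the other tumours.

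Of 34 basement membrane and integrin genes, 5 rose and 2 fell, with a median of 0.64. Col4a5, a collagen of epithelial basement membranes, measured 6.98, 6.26 and 7.23 in glands and 8.07, 8.15 and 8.38 in tumours (1.38 ± 0.23, adjusted p = 0.0119). Nid1, a linker of laminin and collagen networks, measured 11.85, 12.04 and 11.39 in glands and 9.52, 10.26 and 9.47 in tumours (-2.01 ± 0.47, adjusted p = 0.0321). Itga7, a laminin receptor of muscle, measured 8.53, 9.28 and 7.62 in glands and 6.55, 6.83 and 5.97 in tumours (-2.03 ± 0.41, adjusted p = 0.0219). Both Nid1 and Itga7 were highest in normal gland 2. Without it 1 of the 34 rose, Col4a5 (1.10, adjusted p = 0.0105), and 0 fell, with Itga7 at -1.63 (adjusted p = 0.0525).

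Matrix proteases and their inhibitors fell in 7 of 29 cases and rose in 0, with a median of -0.57, and 4 fell without normal gland 2. Timp4, an inhibitor of metalloproteinases, measured 10.25, 10.78 and 7.29 in glands and 4.67, 4.76 and 5.17 in tumours (-4.57 ± 0.78, adjusted p = 0.0129). Normal gland 3 was about 3 units below the other glands, and without normal gland 2 Timp4 fell by 3.90 (adjusted p = 0.0353). Htra3, a secreted serine protease, fell by 2.43 ± 0.32 and Mmp19, a metalloproteinase, fell by 2.16 ± 0.33, and both calls held (adjusted p = 0.0201 and 0.0282). Adamts5, which cuts proteoglycans, fell by 3.36 ± 0.81 with a call that was lost (adjusted p = 0.0939).

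Endothelial genes fell in 6 of 29 cases and rose in 0, with a median of -0.70. Tek, Ptprb and Kdr, which encode the angiopoietin receptor Tie2, an endothelial phosphatase and a receptor for VEGF, had changes of -1.81 ± 0.47, -1.74 ± 0.39 and -1.36 ± 0.29. Kdr measured 9.99, 10.17 and 9.87 in glands and 8.38, 9.19 and 8.38 in tumours, with metastatic tumour 2 the highest tumour. Metastatic tumour 2 also had the highest score of the endothelial list among tumours, 0.36 against -0.36 and -0.34, and lay within the gland range of 0.31 to 0.69. Without normal gland 2, Tek, Ptprb and Kdr were not called (adjusted p = 0.126, 0.0888 and 0.0747) and 2 of the 29 fell. Lyve1, of lymphatic vessels and some macrophages, was the called member of 7 lymphatic genes (-2.30 ± 0.62), and its call was lost too (adjusted p = 0.132).

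Of 9 mast-cell genes, 5 fell and 1, Kit, rose, with a median of -1.21. Mcpt4, a mast-cell chymase, measured 9.52, 10.47 and 9.03 in glands and 5.19, 5.22 and 3.93 in tumours (-4.89 ± 0.81, adjusted p = 0.0118). Cpa3, mast-cell carboxypeptidase, measured 11.25, 11.87 and 10.68 in glands and 6.91, 6.92 and 5.47 in tumours (-4.83 ± 0.87, adjusted p = 0.0152). Tpsb2, a tryptase, fell by 3.31 ± 0.47 and Cma1, another chymase, fell by 2.84 ± 0.38. Normal gland 2 was the highest array for Mcpt4, Cpa3, Tpsb2 and Cma1. The list score was 1.09, 1.73 and 0.71 in the glands and -0.67, -0.78 and -0.84 in the tumours. Skin is rich in mast cells, and its part in this result was not tested. Without normal gland 2, 4 members fell and the changes of Mcpt4 and Cma1 were -4.50 and -2.39. Cpa3 then missed the threshold (-4.53, adjusted p = 0.0527).

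In the lists of other immune cells most changes were negative. Over all genes 7.35% were called higher and 6.00% lower, and the counts of these short lists are to be read beside those shares. Of 27 macrophage and dendritic genes 2 fell and 20 had a negative change, with a median of -0.49 and 8 lower at an unadjusted p under 0.05, and without normal gland 2 limma called 0 of them. Cd209d, a lectin of tissue macrophages, measured 8.43, 9.19 and 7.33 in glands and 5.15, 5.52 and 4.98 in tumours (-3.10 ± 0.58, adjusted p = 0.0168), and missed the threshold without normal gland 2 (-2.66, adjusted p = 0.0507). Retnla, a secreted protein of alternatively activated macrophages, had a change of -4.39 that just missed the threshold (adjusted p = 0.0531). Of 21 lymphocyte genes 3 fell, against 6.00% of all genes, and 19 had a negative change, with a median of -0.54. At an unadjusted p under 0.05 in limma, 9 were lower and 1 higher. Irf4, a factor of lymphocytes and dendritic cells that fat cells also express, measured 7.61, 7.88 and 7.17 in glands and 5.60, 5.69 and 5.35 in tumours (-2.00 ± 0.21, adjusted p = 0.0029). Its call held without normal gland 2 (adjusted p = 0.0092), while that of Cd3g, a subunit of the T cell receptor complex, did not (-1.44 ± 0.35 with all arrays, then adjusted p = 0.0749). Limma called 0 of 10 neutrophil genes, 0 of 22 interferon genes and 0 of 17 antigen presentation genes, where 0, 0 and 6 had an unadjusted p under 0.05. Of the antigen presentation genes 15 had a negative change, with a median of -0.53, and 1 fell without normal gland 2.

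Chemokines and cytokines held the gene that normal gland 2 moved most among all called genes. Cxcl13, which draws B cells into follicles, measured 8.93, 12.41 and 8.80 in glands and 6.20, 6.03 and 5.44 in tumours. Its change was -4.16 ± 0.98 (adjusted p = 0.0325), and -2.98 without normal gland 2 (adjusted p = 0.0466). That gland was more than 3 units above the others, and the others were still above the tumours. Ccl24, which attracts eosinophils, fell by 2.68 ± 0.35 and kept its call (adjusted p = 0.0163), while Ccl11, another such chemokine, fell by 3.16 ± 0.74 and did not (adjusted p = 0.0850). Cxcl17, a chemokine of mucosal surfaces, measured 7.17, 7.13 and 6.84 in glands and 9.44, 11.36 and 8.50 in tumours. It rose by 2.72 ± 0.65 and lost its call without normal gland 2 (adjusted p = 0.0865). Of the 33 members, 1 rose and 3 fell, against 7.35% of all genes higher and 6.00% lower.

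In the list of the FGF pathway, which signals through the ERK kinases, 7 of 28 members rose, 3 fell and 18 did not pass. Etv5, an ETS factor that FGF signals induce, measured 8.28, 7.50 and 8.39 in glands and 10.06, 11.27 and 10.94 in tumours (2.70 ± 0.39, adjusted p = 0.0078). Its relative Etv4 rose by 1.89 ± 0.47 and Dusp6, a phosphatase that switches ERK off, by 1.57 ± 0.28. Fgf10, a ligand from the mammary stroma, measured 6.71, 6.72 and 6.90 in glands and 4.82, 5.38 and 5.30 in tumours, and fell by 1.61 ± 0.17 (adjusted p = 0.0024). Another ligand, Fgf1, rose by 0.86 (adjusted p = 0.0354), a call that was lost without normal gland 2 (adjusted p = 0.102). The feedback genes Spry1, Spry2, Spry4 and Dusp4 did not pass, with changes of 1.10, 0.33, 0.64 and -0.06. The Etv5, Dusp6 and Fgf10 calls held without normal gland 2, at adjusted p = 0.0246, 0.0481 and 0.0095, and the Etv4 call did not (adjusted p = 0.100). Without that gland 4 members rose and 1 fell.

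Among the IGF genes, 3 of 26 rose and 3 fell, against 7.35% of all genes higher and 6.00% lower. Pappa, a protease that frees IGF from its binding proteins, measured 7.32, 6.09 and 7.46 in glands and 9.70, 9.61 and 10.10 in tumours (2.85 ± 0.49, adjusted p = 0.0134). The binding protein gene Igfbp2 rose by 2.70 ± 0.53 and its relative Igfbp6 fell by 3.17 ± 0.39. Igfbp6 measured 10.27, 10.09 and 9.49 in glands and 6.88, 7.38 and 6.09 in tumours. Igf1 and Ghr, the growth factor and the growth hormone receptor, had changes of -2.32 ± 0.50 and -2.21 ± 0.28. In the fit that lacked normal gland 2, the calls of Pappa, Igfbp6 and Ghr held (adjusted p = 0.0359, 0.0187 and 0.0123) and those of Igfbp2 and Igf1 did not (0.0613 and 0.0812).

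Of 41 TGF-beta and BMP genes, 4 rose and 4 fell, near the shares over all genes (7.35% higher and 6.00% lower). Acvr1c, the receptor ALK7 of fat cells, measured 8.32, 9.29 and 7.16 in glands and 5.35, 5.13 and 5.19 in tumours (-3.04 ± 0.47, adjusted p = 0.0099). Bmp3 fell by 3.01 ± 0.51 and Chrdl1, a BMP antagonist, fell by 2.97 ± 0.53. Sostdc1, an antagonist of both BMP and Wnt proteins, measured 6.29, 7.82 and 6.71 in glands and 9.32, 10.18 and 9.07 in tumours (2.59 ± 0.70, adjusted p = 0.0478). Its highest gland was normal gland 2, and without that array Sostdc1 had a change of 3.03 but missed the threshold (adjusted p = 0.0676), while the calls of Acvr1c, Bmp3 and Chrdl1 held (adjusted p = 0.0154, 0.0409 and 0.0426).

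Single members stood out in the ErbB and Notch lists. Nrg4, an ErbB4 ligand made by fat, measured 8.02, 8.27 and 7.51 in glands and 5.79, 5.70 and 5.94 in tumours (-2.12 ± 0.19, adjusted p = 0.0015). Mfng, a sugar transferase that modifies Notch receptors, measured 8.85, 9.35 and 8.79 in glands and 6.77, 7.19 and 6.68 in tumours (-2.12 ± 0.23, adjusted p = 0.0029). Both were apart between the groups by more than 1.5 units and kept their calls without normal gland 2 (adjusted p = 0.0039 and 0.0091). Of 17 ErbB genes 1 rose and 1 fell, and of 22 Notch genes 0 rose and 1 fell. Over all genes the shares were 7.35% higher and 6.00% lower. At an unadjusted p under 0.05 in limma, 3 Notch genes were higher and 3 lower. In the list of mesenchymal transition and cadherins 3 of 17 genes rose, 2 fell and 12 did not pass, with a median of -0.07. Zeb1, a repressor of E-cadherin, fell by 1.48 ± 0.34, and it missed the threshold when normal gland 2 was left out (adjusted p = 0.0977).

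Axon guidance genes, which also pattern the mammary epithelium, rose in 9 of 39 cases and fell in 1, with a median of 0.54. Slit2, a secreted repellent, measured 7.15, 7.19 and 7.06 in glands and 9.95, 9.60 and 10.18 in tumours (2.78 ± 0.50, adjusted p = 0.0152). Epha7 and Epha2, Eph receptor kinases, rose by 2.43 ± 0.49 and 1.93 ± 0.32. Epha2 measured 7.11, 7.28 and 6.90 in glands and 8.62, 9.59 and 8.85 in tumours. For Slit2 and Epha2 normal gland 2 lay within 0.4 of the others. The 3 calls held without normal gland 2 (adjusted p = 0.0469, 0.0403 and 0.0329), where 7 members rose and the median was 0.53, against 2.04% of all genes higher.

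Hox genes, transcription factors that record position along the body, fell in 12 of 24 cases and rose in 0, with a median of -0.90. Hoxc6 measured 7.73, 8.59 and 7.22 in glands and 5.50, 4.38 and 4.91 in tumours (-2.91 ± 0.39, adjusted p = 0.0063). Hoxc9 measured 7.30, 7.11 and 6.19 in glands and 4.82, 4.52 and 4.63 in tumours (-2.21 ± 0.27, adjusted p = 0.0042). Hoxc10 fell by 2.09 ± 0.24 and Hoxc8 fell by 3.15 ± 0.58. The 12 genes came from the A, B and C clusters, and overlapping transcripts within a cluster cannot be told apart here. The highest array for this list was normal gland 2, and without it 8 fell and the median was -0.66, with Hoxc6 at -2.54, Hoxc9 at -2.09 and Hoxc8 not called (adjusted p = 0.0547). Without normal gland 1 the count was 6. Fat genes fell on the same arrays, with list scores of 2.74, 3.01 and 2.04 in glands and -1.41, -1.31 and -1.31 in tumours, and their part in the Hox result was not tested.

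**Figure D5:**
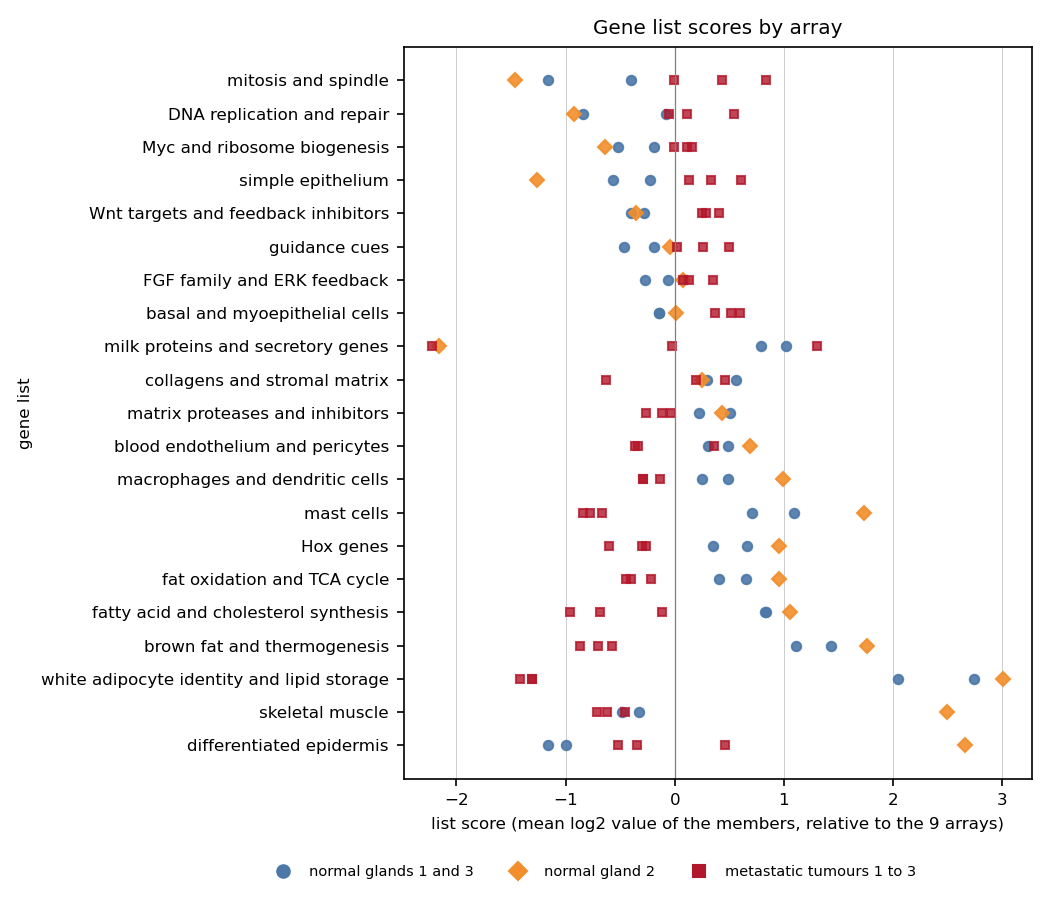
List score (x axis, average of a list's genes, each centred on the 9 arrays, in log2 units) for 21 gene lists, with 1 point per array. Blue circles are normal glands 1 and 3, the orange diamond is normal gland 2 and red squares are metastatic tumours; normal gland 2 stands alone at 2.49 for skeletal muscle and 2.66 for epidermis, and lies at -2.16 beside metastatic tumour 2 at -2.22 for milk genes.

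The 3 lists in which normal gland 2 stood furthest from the other glands gave almost no calls. Over all genes 13.3% were called with all arrays and 4.93% without normal gland 2. These lists were singled out by a wide spread among the glands, which by itself makes calls with all arrays less likely. The lack of calls in that fit is therefore no result about these genes. Of 31 skeletal muscle genes, 24 were more than 2 units higher in normal gland 2 than in the mean of the other glands. Limma called 0 of the 31, with 2 lower at an unadjusted p under 0.05, and the median change went from -1.15 to -0.15 without that gland, where 0 were called. Of 23 genes of differentiated epidermis, 19 were as far above, 1 fell (Aspg), and the median went from -0.78 to 0.27. Krt6a, a keratin of hair follicles and of stressed epithelium, measured 4.33, 9.45 and 3.85 in glands and 11.52, 8.06 and 6.65 in tumours. The envelope protein gene Sprr1a measured 6.56, 10.31 and 5.07 in glands and 11.89, 8.21 and 10.09 in tumours. In both genes normal gland 2 lay within the tumour range and the other glands below it. The change of Krt6a went from 2.87 to 4.66 (adjusted p = 0.0830) and that of Sprr1a from 2.75 to 4.25 (adjusted p = 0.0755), so neither passed either way.

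Milk genes went the other way. Of 20 milk proteins and secretory genes, 13 were more than 2 units lower in normal gland 2 than in the other glands. The mucin-like milk protein gene Glycam1 measured 13.36, 6.88 and 13.52 in glands and 13.21, 8.30 and 8.60 in tumours. Csn1s2a, a casein, measured 13.39, 7.86 and 13.50 in glands and 13.21, 8.90 and 12.20 in tumours. Metastatic tumour 1 lay with normal glands 1 and 3, and metastatic tumour 2 with normal gland 2. With all arrays the median change was -0.07, and without normal gland 2 it was -1.29. Limma called 0 of the 20 in both fits, with 1 lower at an unadjusted p under 0.05 when all arrays were used.

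The 44 genes gained without normal gland 2 included 22 higher and 22 lower in tumours. Normal gland 2 was the lowest gland in 25 of these and the highest in 19. The genes that follow were named after their values were seen. Col6a5 and Col6a6, chains of collagen VI, had changes of -3.76 and -2.13 without normal gland 2 (adjusted p = 0.0153 and 0.0192). Col6a5 measured 10.22, 5.61 and 8.13 in glands and 5.36, 5.31 and 5.56 in tumours, so normal gland 2 lay at the level of the tumours. Tdo2, an enzyme that breaks down tryptophan, fell by 3.80 without that gland (adjusted p = 0.0234), against -2.86 ± 0.83 with it. Among genes called in both fits, Hal, a histidine-degrading enzyme of skin and liver, measured 8.88, 10.78 and 8.48 in glands and 6.23, 6.47 and 6.46 in tumours. Its change went from -2.99 ± 0.52 to -2.29, and its adjusted p from 0.0136 to 0.0043. Akr1c18, an enzyme that inactivates progesterone, had a change of -3.41 ± 0.69, or -2.72 without normal gland 2.

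Array probe sets also read 232 microRNA genes, of which 6 rose (2.59%, against 7.35% of all genes) and 5 fell (2.16%, against 6.00%). Without normal gland 2, 4 of the 232 were called (1.72%, against 4.93% of all genes), so calls were no more frequent here than over the whole table. MicroRNAs are short RNAs that pair with messenger RNAs through their seed, bases 2 to 8. The probe sets read the gene or its precursor, so mature forms were not measured. The mature sequences of 3 of these genes are shown from RefSeq, with the seed in capitals, because a let-7 gene rose while another with the same seed fell.
let-7f-5p of Mirlet7f-1: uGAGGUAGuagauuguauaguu
let-7c-5p of Mirlet7c-2: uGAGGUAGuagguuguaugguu
miR-181b-5p of Mir181b-2: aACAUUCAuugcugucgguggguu
On GRCm38.p6 these lie at chr13:48537889-48537910 on the minus strand, chr15:85706616-85706637 on the plus strand and chr2:38853845-38853868 on the plus strand. The seed GAGGUAG is shared by both let-7 forms. Mirlet7f-1 measured 5.94, 4.93 and 5.07 in glands and 6.72, 7.22 and 6.55 in tumours (1.51 ± 0.41, adjusted p = 0.0475). Mirlet7c-2 measured 7.11, 6.46 and 6.34 in glands and 4.91, 5.51 and 5.81 in tumours (-1.23 ± 0.29, adjusted p = 0.0321). Neither pair of groups overlapped, but neither call held without normal gland 2 (adjusted p = 0.142 and 0.0700), and the other 5 let-7 genes tested were not called. Mir181b-2, with the seed ACAUUCA, rose by 1.09 ± 0.23 and lost its call as well (adjusted p = 0.0677). Mir1949 rose by 1.28 ± 0.32, and Mir1192 and Mir701 fell by 0.93 ± 0.23 and 0.93 ± 0.22.

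The tumours labelled non-metastatic were the last point of comparison. In limma, 1 of the 17478 genes differed between the tumour groups (0.00572%), Coch, which was 4.18 higher in metastatic tumours. Both contrasts share the metastatic arrays. Tmem45b measured 5.89, 4.58 and 5.08 in non-metastatic tumours and Slc1a5 9.14, 8.73 and 8.81, within 1 unit of the metastatic tumours' range. Scgb1b27 measured 4.89, 5.09 and 4.55 in non-metastatic tumours and Cxcl17 7.26, 6.80 and 7.99, below every metastatic tumour, but these differences of 5.38 and 2.42 did not pass (adjusted p = 0.882 for both). Ect2 measured 10.01, 9.99 and 10.31 in those tumours, a difference of -0.03, and Fgf10 5.43, 5.09 and 5.18, a difference of -0.07.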

How the data were processed

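RNA from frozen mammary tissue was hybridised by the submitters to Affymetrix Mouse Gene 2.0 ST arrays, 1 array per mouse. The authors deposited log2 values for 41345 probe sets, made with RMA per the submitters' processing notes, with the version and genome build not given in the sources used here. RMA equalises the arrays' distributions, so a shift of all genes would not be seen. The number of arrays (3 per group) limits the precision, and read depth does not apply to them.

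The platform annotation gave 1 symbol to 23521 probe sets, several to 1814 and none to 16010, which were left out. Of 22180 genes, 1082 had several probe sets and took the one with the highest mean over 9 arrays. A gene had to exceed the 30th percentile of the array on 3 or more arrays, which kept 17478 genes and removed 4702. Limma 3.58.1 in R 4.3.3 fitted 1 mean per group to all 9 arrays (6 residual degrees of freedom), with two-sided moderated tests and Benjamini-Hochberg adjustment. The fit was tested on simulated data. The normal glands and tumours come from separate mice, and same-numbered arrays are not pairs (deviations correlated at r = -0.117, 0.171 and 0.140).

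The groups were compared again with each array left out and with the alternatives of the closing section. The 42 gene lists and the rule for naming genes were chosen with earlier results of these data known, so counts over a list are descriptions. The rule named Wnt1, the 12 highest and 12 lowest changes among called genes without overlap, up to 4 members of each list by size of change, the 6 genes furthest above and 6 furthest below the other glands in normal gland 2, the 6 called genes that moved most without it, and up to 6 microRNA genes. Other members were named after their values were seen. Predicted symbols (137 of the called genes) were counted and not named. Names and sequences came from RefSeq tables (GRCm38.p6), in which 23328 probe sets matched a gene. Promoters were read as the first listed per gene, and the motif search counted any match. Of the 11 called microRNA genes 10 matched a listed sequence.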

Additional observations from a re-analysis of the deposited data

Results flagged for a closer look

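Coch, the gene of the matrix protein cochlin, differed between the tumour groups in its change from normal gland, by 4.18 on the log2 scale (limma adjusted p = 0.0133). It measured 10.71, 10.68 and 10.32 in metastatic tumours, 7.06, 5.97 and 6.13 in non-metastatic tumours and 6.62, 6.07 and 5.84 in normal glands, so all 3 metastatic tumours were above all 6 other arrays. Its change from normal gland in metastatic tumours held without normal gland 2 (4.34, adjusted p = 0.0031). The difference between the tumour groups did not pass without normal gland 2 (adjusted p = 0.0627), which enters that contrast only through the estimate of the spread, nor without metastatic tumour 1 (0.0807) or 2 (0.143). Over the 9 fits that left out 1 array it lay between 3.97 and 4.52. Without non-metastatic tumour 3 the tumour groups differed in 40 genes, and in 0 to 2 genes when any other array was left out.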

How the results depend on the processing

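Leaving out 1 array at a time gave between 627 and 2832 called genes, between 225 and 1520 higher and between 378 and 1312 lower. A fit with 1 array fewer has less power to call a gene. The part of each mouse in these counts cannot be told apart from that loss. Over the same fits the median changes ran from 0.48 to 0.73 for Wnt targets, 0.021 to 0.123 for Wnt ligands and receptors, 0.58 to 1.30 for simple epithelium, 0.71 to 1.03 for basal cells, -1.80 to -1.36 for brown fat and 0.47 to 0.83 for basement membrane. They ran from -0.72 to -0.36 for matrix proteases, -0.34 to 0.15 for lymphatic endothelium, -1.61 to -0.91 for mast cells, -0.33 to -0.19 for interferon response and 0.057 to 0.481 for ErbB genes. Only for lymphatic endothelium among these did the sign turn, without normal gland 2. The median of milk genes ran from -1.29 to 0.76 and that of epidermis genes from -1.34 to 0.27.

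Array weights, which were 7.50, 0.44 and 0.49 for normal glands 1, 2 and 3, called 6498 genes (3765 higher and 2733 lower). The gland mean in that fit thus rested mostly on normal gland 1. A minimum change of 1 left 966 (366 and 600). With the replicate number as a block 1299 genes were called (632 higher and 667 lower), although same-numbered arrays are not pairs. Array weights moved the medians of Wnt targets to 0.53, basal cells to 0.96, matrix proteases to -0.71, ErbB genes to 0.41 and Notch genes to 0.12. A filter at the 50th percentile, which keeps fewer members, gave 0.28 for Wnt ligands and receptors, 0.58 for hormone-sensing cells, -2.15 for brown fat, -3.07 for mast cells, -0.69 for antigen presentation, 0.48 for FGF genes, 0.49 for ErbB genes and -1.17 for Hox genes. Averaging the probe sets of a gene gave 0.53 for Wnt targets, -0.89 for brown fat and -0.41 for matrix proteases. The cause of these shifts was not tested.

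Quantile normalisation called 934 genes higher and 1093 lower, and median centring 1423 higher and 951 lower. Of the 116 named genes called with all arrays, 70 kept their call without normal gland 2, 64 without normal gland 1, 108 without normal gland 3, 59 without metastatic tumour 1, 80 without metastatic tumour 2, 65 without metastatic tumour 3 and 88 with the block. None of them changed sign under any alternative run.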
